A study of Mus musculus with 36 samples.

Results

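Ttn encodes titin, the giant filament that spans the sarcomere from the Z disc to the M line and gives heart muscle much of its passive elasticity. The mouse gene is read from its high-coordinate end. Open chromatin was followed along this gene by ATAC-seq, which reads out where a transposase can cut DNA that is not packed away. Accessible sites mark promoters and enhancers, and the body of a long, strongly transcribed gene can be open as well. The regions described here are all deposited regions that overlap a window of 330 kb on chromosome 2 of the mm9 build, in which titin takes up about 280 kb. The listed regions run from chr2:76514751-76515750 to chr2:76818251-76819250, with the promoter at the high-coordinate end. There were 179 such regions among 122759 listed in all (66, 53 and 60 on days 4, 7 and 14), and 176 of the 179 overlapped the extent of the gene. The window was proposed with earlier border zone and sham results of these libraries known. Its values are therefore given as a description with no test.

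The border zone is living muscle that adjoins the infarcted area after a myocardial infarction, and sham animals were operated on without one. One border zone library and one sham library were made on each of days 4, 7 and 14 after surgery, all from left ventricular nuclei of mice on the FVB/N background. On days 7 and 14 both libraries came from Myh6-MerCreMer;nTnG mice given tamoxifen at 20 mg/kg, in which Cre under the cardiomyocyte promoter of Myh6 switches a nuclear reporter to green. For these days 50000 GFP-sorted nuclei were collected per library, and a Sun1/sfGFP line is named among the mice bred as well. On day 4 both libraries came from mice labelled Cdh5-Cre; Sun1-sfGFP, a genotype whose Cre driver is active in endothelium, and the labels call the nuclei PCM1-sorted. PCM1 is a protein around the nuclear envelope of cardiomyocytes, and the protocol names both a GFP sort and a PCM1 pulldown without saying how they were combined. Day 4 thus differs from the later days in genotype, isolation and aligner as well as in time, and these cannot be told apart. Neither the animals' ages nor any pooling of animals is given in the sources used here. Marker genes of cardiomyocytes and of other cell types were not located, because no mm9 gene annotation was used here. Tags are summed over all nuclei of a library, so fewer nuclei with an open gene and less openness in each nucleus cannot be told apart.

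Over all listed regions, the border zone libraries held 2742623 to 10311657 whole tags and the sham libraries 3858892 to 13936013, with the least on day 7 and the most on day 14. Such sums leave out reads elsewhere and are not the sequencing depth. In every listed region the larger value reached 35 tags on day 4, 50 on day 7 or 150 on day 14, so an unlisted stretch has no measured value. A region could thus be listed through the border zone or through sham alone. Listed border zone values are tags multiplied by a factor, apart from the non-differential regions of day 4. Intervals below are exact 95% binomial intervals and cover counting error only.

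The promoter is shown because regions next to the promoter end of the gene were listed on day 14 and not on days 4 and 7. Its 250 bases before the transcription start are given as RefSeq places them on GRCm38.p6, chr2:76982548-76982797 on the minus strand, a position of another build that cannot be set against the mm9 coordinates. Capitals mark TATAA and CCAAT.
Ttn promoter: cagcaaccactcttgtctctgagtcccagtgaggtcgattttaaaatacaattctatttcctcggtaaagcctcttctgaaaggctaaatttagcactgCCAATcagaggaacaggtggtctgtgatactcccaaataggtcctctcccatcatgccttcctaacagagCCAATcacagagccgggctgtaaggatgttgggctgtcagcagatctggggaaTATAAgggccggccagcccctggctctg
On both strands, TATAA was found once, from 28 to 24 bases before the start, and CCAAT 2 times. TATAA stands in 22.8% and CCAAT in 33.8% of the 32851 RefSeq promoter sequences of this length. A MEF2 site, the A/T-rich motif bound by muscle transcription factors, was found once, from 166 to 157 bases before the start, and 2.92% of all promoters hold one. GATA and the E-box CANNTG were each found once, against 53.6% and 66.2% of all promoters with at least 1. Neither the CArG box, in 1.47% of all promoters, nor CATTCC, in 12.6%, was found in this window. These are matches of letters and not shown to be bound sites.

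Listed titin chromatin held fewer tags in the border zone than in sham on each of the 3 days, and by far the most so on day 7. On day 4 the 66 regions summed to 15876 listed tags in the border zone and 19802 in sham, 1.25-fold lower in the border zone (1.22 to 1.27). On day 7 the 53 regions summed to 6704 listed tags in the border zone and 14304 in sham, 2.13-fold lower (2.07 to 2.2). On day 14 the 60 regions summed to 29288 listed tags in the border zone and 36794 in sham, 1.26-fold lower (1.24 to 1.28). The intervals of days 4 and 14 overlap, and that of day 7 lies apart from both. The overlap depends on the lists' scaling, which left the non-differential regions of day 4 unscaled. With 1 factor per day from the summed tags of all listed regions, the intervals of day 4 (1.13 to 1.18) and day 14 (1.24 to 1.29) lie apart.

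Per length, day 4 had 88.0 listed tags per kb in the border zone and 110 tags per kb in sham. Day 7 had 53.8 in the border zone and 115 in sham, and day 14 had 256 in the border zone and 321 in sham. Densities are not comparable between days, since neither depth nor listed length is equal: 180.5 kb of the window were listed on day 4, 124.5 kb on day 7 and 114.5 kb on day 14. As a share of all listed tags of its own library, which does not use the authors' scaling, the window took 0.289% of border zone and 0.335% of sham tags on day 4. It took 0.182% in the border zone and 0.371% in sham on day 7, and 0.209% in the border zone and 0.264% in sham on day 14. By these shares titin was 1.16-fold, 2.04-fold and 1.27-fold lower in the border zone on days 4, 7 and 14. In these 3 border zone libraries the day 7 share was the lowest, and in the 3 sham libraries it was the highest. Each share rests on the regions listed on its own day, so shares of different days cover different ground.

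**Figure D1:**
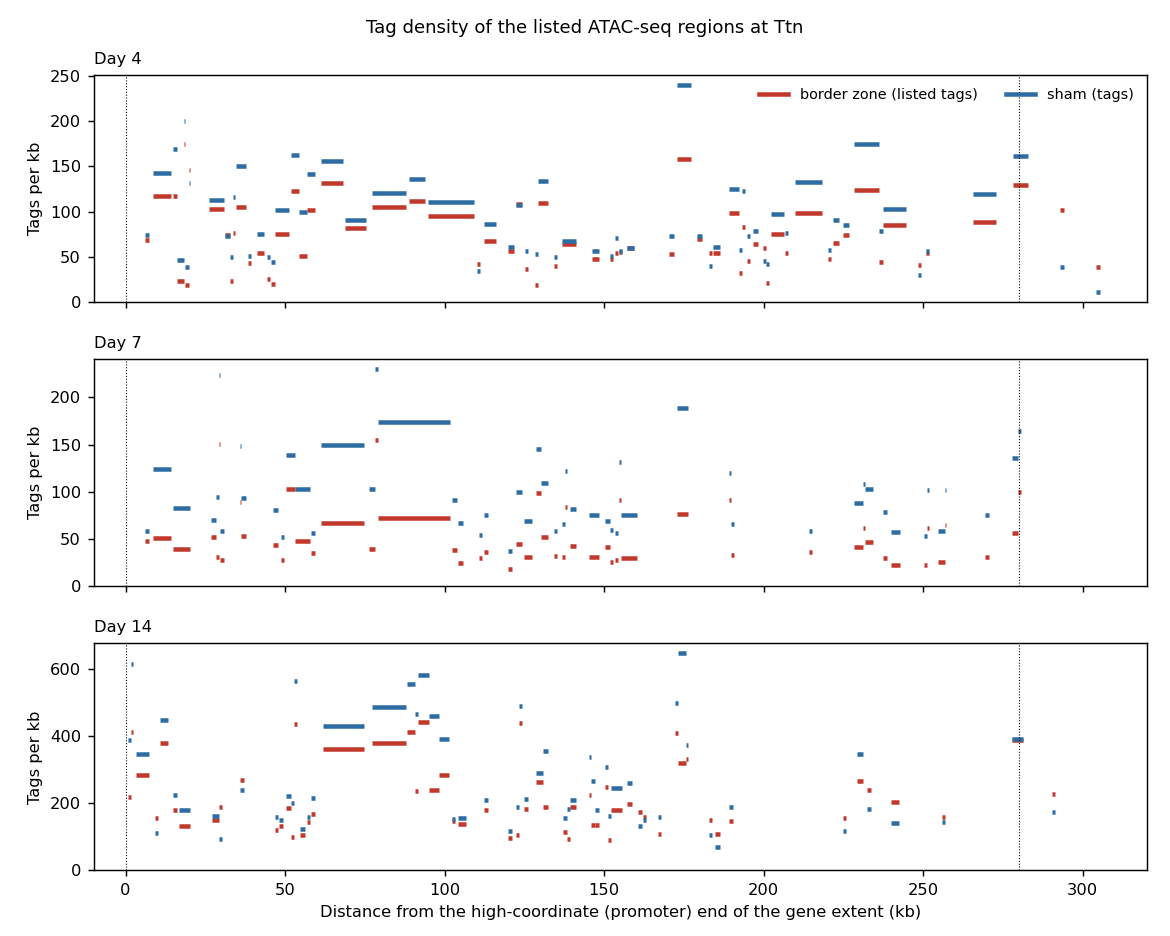
Tags per kb of each listed region (vertical axis) against distance in kb from the promoter end of the gene extent (horizontal axis), with border zone and sham as separate segments in 1 panel per day; dotted lines mark both ends of the gene extent. The sham segments lie above the border zone segments in all 53 regions of day 7, and the widest segments of day 7 lie about 61 to 102 kb from the promoter end.

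All listed pieces of the gene leaned the same way on day 7. On day 4, 56 of 66 regions had fewer listed tags in the border zone than in sham, where 56.4% of all listed regions did. On day 7 all 53 of 53 did, against 55.6% of all listed regions, and on day 14, 48 of 60, against 48.2%. These shares come from the contrast on which the gene was chosen. Many of the 53 regions of day 7 reached the minimum of 50 tags only in sham, such as chr2:76568751-76569750 with 22.9 and 53. Such regions could be listed only with the border zone below sham. The same minimum applied to all listed regions of that day. For border zone over sham, the titin regions had median log2 ratios of -0.31, -1.05 and -0.29 on days 4, 7 and 14, and all listed regions of these days had medians of -0.09, -0.14 and 0.03. Within titin the ratio on day 7 ran from -1.62 to -0.28. The region at -0.28 is the one nearest the promoter end, and its counting interval includes equality. On day 4 the log2 range was -1.51 to 1.84 and on day 14 -1.03 to 1.02, with regions on both sides of 0.

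The deposited lists class a region as sham-higher where sham exceeded the border zone by a set fold, which at titin fell between 1.74 and 1.77. On day 4, 10 of the 66 titin regions were sham-higher, 54 were non-differential and 2 were border zone-higher, where 7.37% of all listed regions were sham-higher and 12.2% border zone-higher. On day 7, 36 of 53 were sham-higher and 0 border zone-higher, against 22.0% and 17.5% of all regions. On day 14, 10 of 60 were sham-higher and 1 border zone-higher, against 6.75% and 13.4%. The window was chosen on this contrast, so nothing is read from these counts. Sham-higher regions covered 12.5, 108 and 14.5 kb of the window on days 4, 7 and 14.

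The regions just inside and just outside that fold on day 4 were 1.79-fold and 1.62-fold lower in the border zone. On day 7 they lay close together, at 1.77-fold (79.5 listed tags in the border zone, 141 tags in sham) and 1.74-fold (31.0 and 54), and on day 14 they were 1.77-fold and 1.51-fold lower. Of the 54 non-differential regions of day 4, the counting interval of 25 lay wholly on the side of lower border zone tags, 0 on the other side, and 29 included equality. Of all 37653 non-differential regions of that day, 21.0% lay on the lower side and 1601 regions on the higher. The 17 of day 7 were 1.22-fold to 1.74-fold lower in the border zone, with a median of 1.48, and 9 had intervals wholly on the lower side while 8 included equality, against 17.9% on the lower side among all 21128, of which 2998 lay on the higher. Of the 49 of day 14, 23 lay on the lower side, 8 on the higher side and 18 included equality, where 29.9% and 27.2% of all lay on these sides.

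**Figure D2:**
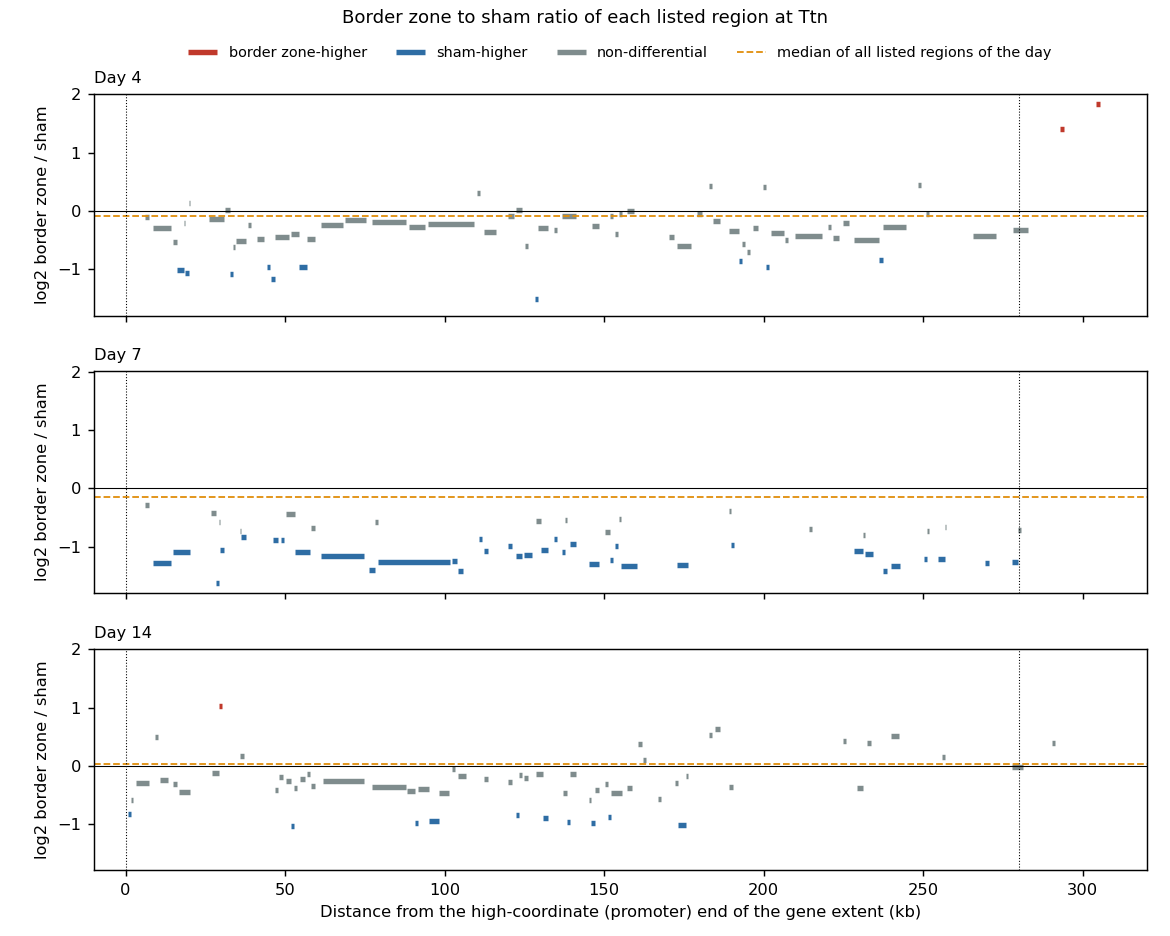
Log2 ratio of border zone to sham for each listed region (vertical axis) against distance in kb from the promoter end (horizontal axis), coloured by its class in the lists, 1 panel per day; the dashed line is the median of all listed regions of that day. On day 7 all 53 segments lie below 0, and on days 4 and 14 most segments lie below 0, with quartiles at -0.51 and -0.11 for day 4, and at -0.46 and -0.13 for day 14.

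The window was next cut into 11 bins of 30 kb, with each region placed by its midpoint. On day 4, 10 of 11 bins were lower in the border zone, and within the gene the bins ranged from 1.11-fold (0.960 to 1.28) at 140 to 170 kb to 1.37-fold (1.28 to 1.46) at 170 to 200 kb. On day 7 all 10 bins with a listed region were lower in the border zone, by 1.76-fold to 2.40-fold. The largest difference of day 7 lay 80 to 110 kb from the promoter end, at 1730 listed tags in the border zone and 4144 tags in sham, 2.40-fold lower (2.25 to 2.55). The smallest lay 20 to 50 kb from it, at 431 and 759 tags, 1.76-fold lower (1.54 to 2.01). The end far from the promoter, 260 to 290 kb away, was 2.12-fold lower (1.79 to 2.51) with 260 listed tags in the border zone and 550 in sham. The bin at the promoter end was 2.2-fold lower (1.96 to 2.46), with 547 and 1202 tags. Every listed bin of day 7 was thus lower in the border zone. The bin at the promoter end drew most of its tags from chr2:76799751-76805250 (217 and 458) and chr2:76805751-76811250 (282 and 685). Its region nearest that end, chr2:76812751-76813750, was 1.22-fold lower (0.791 to 1.90), an interval that includes equality.

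On day 14 the part nearer the promoter and the far part differed. Of the 7 bins from the promoter end to 200 kb, 6 were lower in the border zone, by 1.21-fold to 1.47-fold, and the other, at 20 to 50 kb, had 1144 listed tags in the border zone and 1088 in sham, a ratio of sham to border zone of 0.951 (0.868 to 1.04). The 3 bins from 200 to 290 kb had ratios of sham to border zone of 0.742 (0.568 to 0.970), 0.941 (0.871 to 1.02) and 1.01 (0.931 to 1.10). Intervals of the 0.941 and 1.01 bins include equality. Within the 0.941 bin, chr2:76588751-76590750 had 532 and 693 tags, 1.30-fold lower in the border zone (1.15 to 1.48). The other regions of that bin had more tags in the border zone. These far bins of day 14 rest on 1, 4 and 1 regions and hold 156, 1556 and 1353 listed border zone tags and 116, 1465 and 1368 sham tags. The single region of the 0.742 bin reached the day 14 minimum of 150 tags only in the border zone. So did chr2:76563251-76564250 in the 0.941 bin, with 159 and 143 tags. Such regions could be listed only with the border zone above sham. Nearer the promoter, some regions passed only through sham, such as chr2:76652251-76653250 with 107 and 158. Others there passed only through the border zone, such as chr2:76809751-76810750 with 155 and 110, and chr2:76633751-76635250 with 163 and 105. The difference between the parts of the gene was not tested.

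**Figure D3:**
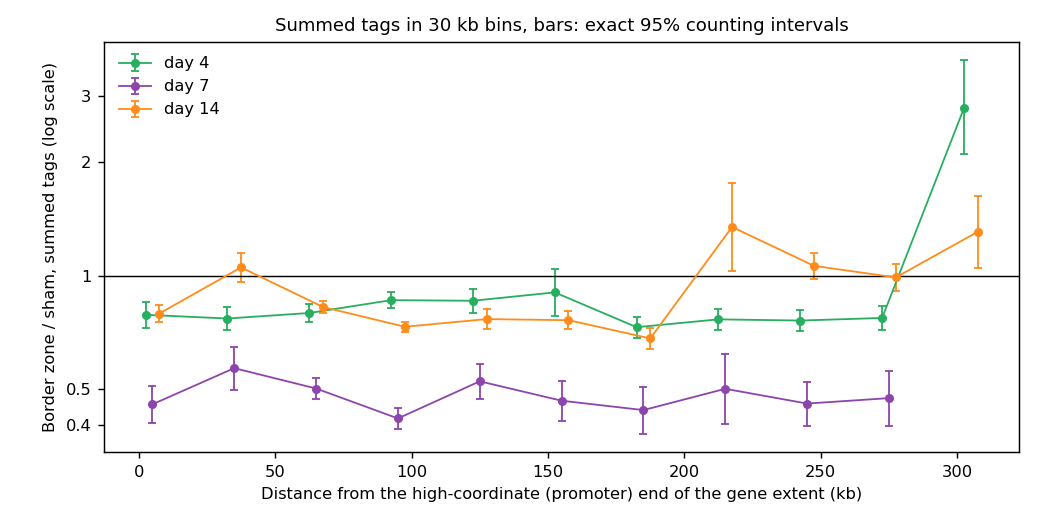
Summed border zone tags over summed sham tags on a log axis, in bins of 30 kb by distance from the promoter end, with bars for the exact 95% counting intervals and 1 line per day. The day 7 points lie between 0.42 and 0.57 over all 10 listed bins, below those of days 4 and 14 in each bin.

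On days 7 and 14 much of the signal came from a block 61.8 to 109 kb from the promoter end, which held a smaller share on day 4. This block, chr2:76710751-76758250, is the span of the widest region of each day. Of the window's tags it took 28.3% in the border zone and 26.3% in sham on day 4. These shares were 42.8% in the border zone and 46.1% in sham on day 7, and on day 14 they were 46.3% and 48.1%. On day 4 it had 4494 tags in the border zone and 5217 in sham, 1.16-fold lower (1.12 to 1.21), and the rest of the window was 1.28-fold lower (1.25 to 1.31). On day 7 it had 2866 listed tags in the border zone and 6598 in sham, 2.30-fold lower (2.19 to 2.42), and the rest was 2.01-fold lower (1.92 to 2.10). On day 14 it had 13553 and 17689 tags, 1.31-fold lower (1.27 to 1.34), and the rest was 1.21-fold lower (1.19 to 1.24). The block thus differed less than the rest on day 4 and more on days 7 and 14.

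On day 4 the widest region, chr2:76710751-76725250, had 1379 tags in the border zone and 1599 in sham, 1.16-fold lower (1.08 to 1.25), and none of the 5 regions of the block was differential. The widest region of day 7, chr2:76718251-76740750, spanned 22.5 kb and was the second widest of all 34952 regions of that day. It had 1634 listed tags in the border zone and 3907 in sham, 2.39-fold lower (2.24 to 2.55). Its neighbour, chr2:76745251-76758750, had 903 and 2018 tags, 2.23-fold lower (2.05 to 2.44). On day 14 this ground was divided into smaller regions, most of them non-differential. Of these, chr2:76732251-76742750 had 3974 listed tags in the border zone and 5116 in sham, 1.29-fold lower (1.23 to 1.35), and chr2:76745251-76758250 had 4709 and 5599, 1.19-fold lower (1.14 to 1.24). Inside the block, 2 stretches were sham-higher on day 14, chr2:76721751-76724750 with 715 and 1375 tags, 1.92-fold lower (1.74 to 2.13), and chr2:76728251-76729250 with 237 and 465, 1.96-fold lower (1.64 to 2.35). The 3 listed stretches that adjoin these were 1.32-fold to 1.38-fold lower and were classed non-differential. Titin held 10, 5 and 2 of the 183, 127 and 86 regions at least 5 kb wide on days 4, 7 and 14.

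At the promoter end the days differed in what was listed. Within 5 kb of the high-coordinate end of the gene extent, days 4 and 7 listed no region, and day 14 listed 3. The outermost, chr2:76818251-76819250, had 219 listed tags in the border zone and 388 in sham, 1.77-fold lower (1.47 to 2.14), and was sham-higher. Its neighbour chr2:76817751-76818250 had 206 and 307 tags, 1.49-fold lower (1.22 to 1.83), and chr2:76812751-76816750 had 1133 and 1389, 1.23-fold lower (1.12 to 1.34). The outermost region of days 4 and 7 was chr2:76812751-76813750, which was non-differential on both. It had 69 border zone and 74 sham tags on day 4, 1.07-fold lower (0.762 to 1.51), and 48.5 listed border zone and 59 sham tags on day 7, 1.22-fold lower (0.791 to 1.90). Both intervals include equality.

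Among the titin regions with the most sham tags outside the block, day 7 had chr2:76805751-76811250, with 282 listed tags in the border zone and 685 in sham, 2.43-fold lower (2.08 to 2.85). On day 4 the second by sham tags was chr2:76583751-76591750 in the far part of the gene, with 992 and 1396 tags, 1.41-fold lower (1.30 to 1.53).

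The gene was then compared in steps of 500 bp, the grid on which region borders lie. Of 659 steps in the window, 182 were listed on all 3 days and 249 on none. A further 128 were listed on day 4 only, against 15 on day 7 only and 20 on day 14 only. Of the 216 steps that were sham-higher on day 7, 22 were also sham-higher on day 14, 146 were non-differential, 1 was border zone-higher and 47 were unlisted. Of the 29 steps that were sham-higher on day 14, 22 were sham-higher on day 7. Days 4 and 7 shared 12 sham-higher steps, of 25 on day 4, while days 4 and 14 shared 0. No step was sham-higher on all 3 days. Shares of steps over the series are not given here, so nothing is read from these overlaps.

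**Figure D4:**
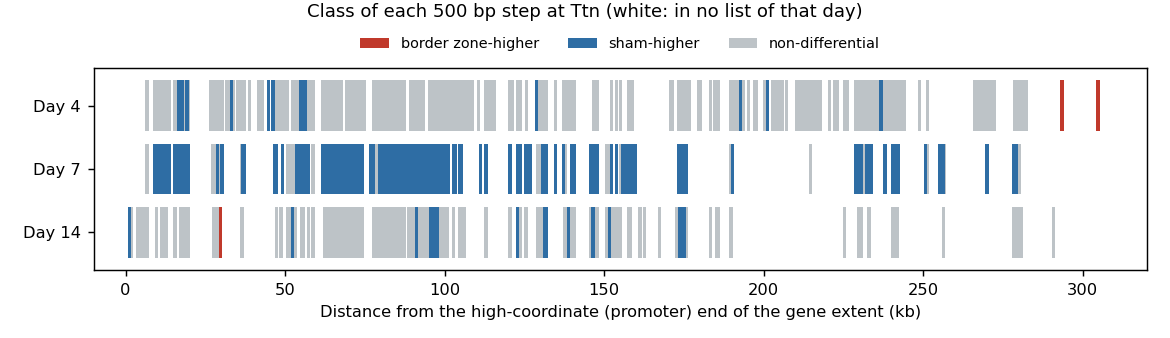
Class of each 500 bp step along the gene, by distance in kb from the promoter end (horizontal axis), 1 row per day; white steps are in no list of that day. Sham-higher steps number 25, 216 and 29 on days 4, 7 and 14.

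Loci were formed by joining regions of any day that had 1 bp or more in common, and each locus took the summed tags of its regions. A locus was called sham-higher on a day if any of its regions was in that day's sham-higher list and none in the border zone-higher list. The window held 59 loci, of which 21 were listed on all 3 days. On days 4, 7 and 14 the border zone was below sham in 20, 21 and 18 of these 21, where it was in 70.9%, 69.8% and 61.1% of all 19733 loci listed on every day. It was below sham on all 3 days in 17 of the 21, against 44.4% of all such loci. The median fold by which the border zone was lower was 1.22 on day 4 (0.991 to 1.52 over the loci), 2.10 on day 7 (1.22 to 2.56) and 1.23 on day 14 (0.70 to 1.67). In 20 of the 21 loci the fold was largest on day 7, as in 55.2% of all such loci. The exception was the locus chr2:76812751-76816750 next to the promoter end, at 1.07-fold, 1.22-fold and 1.23-fold, and its intervals on the 3 days overlap.

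Of the 21 loci, 10 were sham-higher on day 7 alone, where 24.0% of all loci listed on all days were, and 8 were sham-higher on days 7 and 14, against 6.45%. Among the 22 loci listed on days 7 and 14, whatever day 4 held, these were also 8, against 5.06%. Sham-higher on days 4 and 7 were 3 of the 21, against 2.06%. Wide loci of several regions had more occasions for a call, which these shares do not allow for. Calls of different days could also rest on different stretches of a locus. Over whole loci the largest day 14 fold among the 21 was 1.67, below the fold of the lists. Sham-higher on every day were 2 loci, against 0.583% of all such loci. The first, chr2:76687751-76691750, had 347 listed tags in the border zone and 454 in sham on day 4, 1.31-fold lower (1.14 to 1.51). It had 253 and 436 tags on day 7, 1.72-fold lower (1.45 to 2.05), and 810 and 1110 on day 14, 1.37-fold lower (1.24 to 1.52). The second, chr2:76760751-76774250, had 1049 and 1511 tags on day 4, 1.44-fold lower (1.33 to 1.56), 657 and 1109 on day 7, 1.69-fold lower (1.52 to 1.88), and 1536 and 1967 on day 14, 1.28-fold lower (1.19 to 1.38). No 500 bp step of either locus was sham-higher on all 3 days, and over each whole locus the border zone was lower by no more than 1.72-fold on every day.

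A stronger locus over all 3 days, although not called on day 4, was chr2:76642751-76647750, about 172 to 177 kb from the promoter end. It had 709 tags in the border zone and 1077 in sham on day 4, 1.52-fold lower (1.38 to 1.67). On day 7 it had 267 and 662 tags, 2.48-fold lower (2.11 to 2.92), and on day 14 1378 and 2302, 1.67-fold lower (1.55 to 1.80). It had the largest difference of the 21 loci on days 4 and 14 and was picked with its values known. At chr2:76575251-76582750, in the far part of the gene, the days parted. The border zone had 638 tags and sham 767 on day 4, 1.2-fold lower (1.08 to 1.34), and on day 7 113 and 290, 2.56-fold lower (2.0 to 3.31), the largest of the 21 loci that day. On day 14 the border zone was above sham there, with 506 and 354 tags, 1.43 times the sham level. This locus too was chosen after its values were seen.

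**Figure D5:**
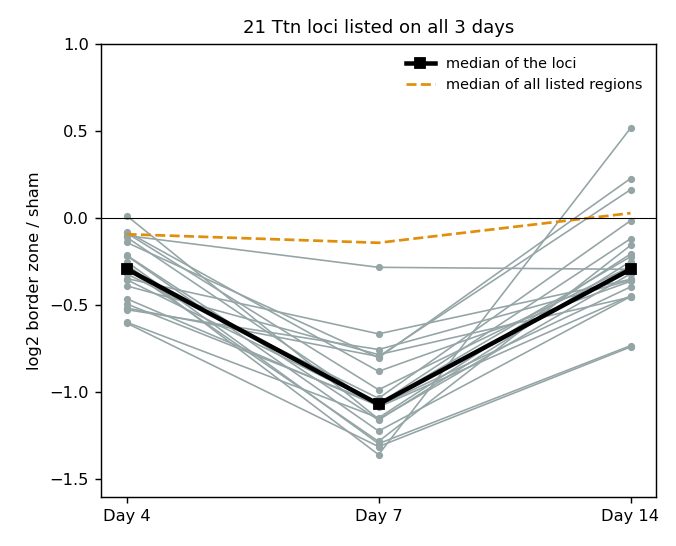
Log2 ratio of border zone to sham (vertical axis) on days 4, 7 and 14 for the 21 titin loci listed on all days, 1 grey line per locus, with their median in black and the median of all listed regions dashed. The median of the loci was -0.29, -1.07 and -0.29, and 20 of 21 lines have their lowest point on day 7.

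Border zone-higher regions were few and 2 of the 3 lay outside the gene. On day 4 these were chr2:76514751-76515750, with 39.3 listed tags in the border zone and 11 in sham, and chr2:76525751-76527250, with 153 and 58, which were 3.57-fold and 2.64-fold higher in the border zone. Both lie beyond the end of the gene far from its promoter, on the side where the GRCm38 gene table has Plekha3 as the nearest protein-coding gene. Neither was listed on day 7 or 14. The only border zone-higher region within the gene was chr2:76789751-76790750 on day 14, with 189 listed tags in the border zone and 93 in sham, 2.03-fold higher.

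The surroundings of the window were compared over flanks of the same width. The flank beyond the promoter end, where the GRCm38 table places Ccdc141 next, had 32, 20 and 25 regions on the 3 days, against 66, 53 and 60 in the titin window. Its summed tags were 1.13-fold lower in the border zone (1.08 to 1.18) on day 4, 1.47-fold (1.37 to 1.59) on day 7 and 1.16-fold (1.12 to 1.2) on day 14, against 1.25-fold, 2.13-fold and 1.26-fold at titin. The flank on the other side held 4, 1 and 3 regions. It was 1.06-fold lower (0.906 to 1.25) on day 4, 2.19-fold (1.28 to 3.90) on day 7 and 1.52-fold (1.32 to 1.74) on day 14. Its folds of days 7 and 14 are above those of titin. The day 7 fold rests on 1 region with 25.6 and 56 tags, which reached the minimum of 50 only in sham. Over all listed regions together the ratio of sham to border zone was 1.07, 1.05 and 0.99 on these days. With 1 library per condition and day the difference between titin and its flank was not tested.

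The genome was also tiled in windows of 330 kb, and the 1007 windows with at least 10 listed regions on every day were ranked by the log2 ratio of summed tags. On days 4, 7 and 14 the ratio was lower than at titin in 55, 6 and 73 of these windows. Titin was chosen on this same contrast, so its place among them is a description and not a test. The titin window was also set around its gene, and the others were tiled without regard to genes. The windows most like titin, by distance over the 3 daily log2 ratios, were chr14:64680001-65010000 at a distance of 0.09, chr15:6930001-7260000 at 0.17 and chr12:32340001-32670000 at 0.19. The first of these had folds of 1.32, 2.10 and 1.26 by which the border zone was lower on days 4, 7 and 14, from 21, 11 and 13 regions. The genes in these windows were not assigned.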

How the data were processed

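The 6 ATAC-seq libraries are 1 border zone and 1 sham library for each of days 4, 7 and 14. The RNA-seq samples, 30 in number, were not analysed here. Per the labels' protocols, the day 4 nuclei were sequenced with paired reads of 76 bp. The submitters' processing notes name mm9 and bedtools for all days, Bowtie2 for day 4, and BWA for the later days. The sources used here do not give how regions were called, or whether duplicates were removed or reads shifted for the transposase.

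The 9 deposited lists hold regions with sham and border zone tags, per the file headers. Sham tags are deposited counts. Border zone tags are a deposited signal that the authors scaled, read from the values, while in the non-differential list of day 4 they are deposited counts and unscaled. In the series 97.6% of 85106 scaled values equalled whole tags multiplied by a factor of that day, within a relative tolerance of 0.001%, and at titin 112 of 125 did. The other 13 were sums of 2 such terms, split in favour of the day's commonest factor. The factors at titin were 1.034 and 1.101 on day 4, 1.347 on day 7, with 1.167 entering its sums, and 1.371 and 1.181 on day 14. Folds are of listed values. Whole tags served for intervals (Clopper-Pearson), shares and alternative scalings. "N-fold lower" is sham over border zone, so values under 1 mean higher in the border zone. Every tag column was assigned to a sample by name.

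No test was run, because there is 1 library per condition and day and the gene was chosen on this contrast. The window, the lists of named regions and the alternatives were chosen with earlier results of these data known. Regions named are those with the most sham tags, the widest, those nearest the promoter end and those classed border zone-higher. Also named are loci sham-higher on all days and regions next to the fold that separates the lists. The sham-higher day 14 regions of the block described above and those adjoining them were chosen after their values were seen, as were loci where this is said. Python 3.11.15, pandas 2.3.3, numpy 2.4.6 and SciPy 1.17.1 were used, and the recovery of tags, the intervals and the joining of loci were tested on simulated data. Coordinates are mm9, counted from 1, except the promoter.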

Additional observations from a re-analysis of the deposited data

Results flagged for a closer look

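The locus chr2:76789251-76793750, about 26 to 31 kb from the promoter end of the gene, was called in opposite directions on different days. On day 7 it held 213 listed tags in the border zone and 371 in sham, a ratio of border zone to sham of 0.574, and it contained sham-higher regions. On day 14 it held 489 and 418 tags, a ratio of 1.17, and it contained the border zone-higher region chr2:76789751-76790750 with 189 and 93 tags. The sham-higher region of day 7 that overlaps this one, chr2:76789251-76790250, had 28.3 and 59 tags and covered only part of it. The rest lay in chr2:76790251-76790750, which was non-differential on day 7 with 75.4 and 112 tags. Only 1 step of 500 bp was sham-higher on day 7 and border zone-higher on day 14. The day 7 region chr2:76789251-76790250 reached the minimum of 50 tags only in sham. So did the other sham-higher region of the locus, chr2:76790751-76791750, with 31.0 and 95 tags. The border zone-higher region of day 14 reached the minimum of 150 tags only in the border zone. Each was listed only through the group with more tags, so nothing is read from the opposite calls. On day 4 the locus was non-differential, with 461 and 508 tags. The difference between the days was not tested. In the series, 340 of 19733 loci listed on all 3 days were called in both directions, and 1 of 21 at titin.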

How the results depend on the processing

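No paired analysis was possible because no result comes from a test, with 1 library per condition and day. The border zone stayed below sham in the summed tags of each day under every alternative run. With 1 median factor per day on whole tags the day 4 difference was 1.21-fold, and with 1 factor per day from the summed tags of all listed regions it was 1.16-fold on day 4 and 2.04-fold on day 7. Over non-differential regions only it was 1.47-fold on day 7 and 1.19-fold on day 14, where the choice of regions itself limits the fold. Leaving out the region with the most tags gave 2.05-fold on day 7, and the median of the regions' ratios gave 1.22-fold on day 14. Sham-higher regions with a fold of at least 2 numbered 5 on day 4, 27 on day 7 and 2 on day 14. With 1 factor from the summed tags, an alternative chosen after the data were seen, 33 regions passed the lists' fold on day 7. Loci sham-higher on days 7 and 14 numbered 8, and 3 when regions were joined only with midpoints within 250 bp; without the day 4 lists, which bridge some regions, 7 loci were sham-higher on both remaining days, in place of the 2 sham-higher on all 3 days. Shares over all listed regions or loci under these alternative settings are not given here, so nothing is read from the counts. With the gene extent in place of the window, the sham-higher counts stayed at 10, 36 and 10 and the summed ratios of each day stayed within their counting intervals. Single regions with few tags have wide intervals, such as 0.791 to 1.90 for the day 7 region nearest the promoter end.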

Other observations

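Across the 21 titin loci listed on all 3 days, the log2 ratios of day 4 had a Spearman correlation of 0.001 with day 7 and -0.01 with day 14. Between days 7 and 14 it was 0.09. The 19733 loci of the series listed on every day gave 0.31, 0.30 and 0.70 for the same pairs. The ratios spread less at titin than in the series, with an SD of 0.26 against 0.69 on day 7 and 0.29 against 0.48 on day 14. The correlations are over loci of the same 6 libraries, which are not replicates, and are given as a description.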
